A study of Caenorhabditis elegans with 20 samples.

Results

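The right arm of chromosome V of the nematode C. elegans was taken as all 1 kb bins that start between 16550001 and 20336001, which is V 16550001 to 20337000 in the genome build WBcel215. The tip of the chromosome beyond it was left out. This gave 3787 of the 100269 bins of 1 kb in the nuclear genome, or 18.1% of those of V, together with 378 bins of 10 kb and 37870 bins of 100 bp over the same 3.787 Mb. The members were chosen by position alone. The last bin outside the inner end had a wild-type H3K27me3 log2 ratio of -2.20 and the first inside had -1.37. At the outer end the last bin inside had 0.59 and the first outside 0.31.

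Polycomb repressive complex 2 (PRC2) methylates lysine 27 of histone H3, and the resulting H3K27me3 marks silent chromatin. H3K36me3 is laid down over transcribed genes and in germ cells is also kept on genes of earlier germ-line expression, and it is known to hinder PRC2 on the same histone tail. H3.3 is the variant that replaces H3 outside of replication, and K27M, which puts methionine in place of the lysine, impairs PRC2. The arms of C. elegans autosomes recombine more than the centres and hold more repeats, and those of V are known for large families of chemoreceptor-type genes.

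The study asked how mutant H3.3 changes where H3K27me3 lies, and used native ChIP-seq, that is, precipitation of uncrosslinked nucleosomes released by MNase. Young adults of 8 strains were grown at 20 °C, and total nuclei enriched for germ-cell nuclei were prepared from them. H3K27me3 (antibody against the di- and trimethylated residue) was measured in 6 strains, the OLLAS epitope tag on H3.3 in 2 and H3K36me3 in 2, each with its own input, which made 20 libraries.

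The strains without K27M were the wild type (N2), the H3-like strain, in which the H3.3 gene his-72 on chromosome III (allele uge67: A87S, A88V and I89A with G90M) carries the chaperone recognition residues of canonical H3, and the duplication strain, which has mnDp10 [umnls31] (X;I), a part of X joined to chromosome I, together with unc-3 (e151) on X. The matching strains with K27M were H3.3K27M, his-72(uge40[K27M]) III, then H3-like K27M, where allele uge68 joins K27M to the 4 H3-like residues above, and the duplication strain with uge40[K27M]. OLLAS was measured with allele uge69[OLLAS::his-72] (H3.3 OLLAS) and with allele uge79, the same fusion with K27M (H3.3K27M OLLAS), and H3K36me3 in the wild type and H3.3K27M. There was 1 track per group, with 1 IP and 1 input library per group in the labels. The methods of the study say that replicates which passed quality control were merged, but the labels do not show which groups had them. No group therefore had an error of its own, and each test below takes strains as replicates. In such whole preparations, a change in the share of cells of a type and a change in the mark per cell cannot be told apart.

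Recovered depth in the arm was highest for wild-type H3K27me3, with a median of 324 IP and 281 input reads per 100 bp bin, and lowest for H3.3K27M H3K36me3, with 42 and 21. By the methods of the study, a bin holds the maximum number of reads found in it, so recovered reads need not be counts of separate reads. Between 1.67% and 2.03% of the 100 bp bins of the arm were exactly 0, against 1.16% to 1.40% in the genome. The input of the arm was close to the genome-wide median on its inner side (1.00 to 1.07 of it in the 6 H3K27me3 libraries over the inner 1890 kb) and lower on its outer side (0.80 to 0.98).

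Without K27M, the wild type carried H3K27me3 in the arm at about the level of the rest of V, and H3-like and the duplication carried less there. In the wild type, 75.5% of its 1 kb bins had a log2 ratio of IP over input above 0, with a median of 0.35, against 0.36 in the left arm (V 643001 to 5897000), 0.34 in the centre (V 5897001 to 16550000), 0.39 on X and 0.23 in all other autosomal bins. In H3-like the arm had 0.21, below the left arm (0.32) and the centre (0.36). The mean input-subtracted signal of the duplication was 5.24 scaled reads per 100 bp bin in the arm, 12.0 in the left arm and 19.5 in the centre. The spread over the arm was wide and lopsided: the lowest 10% of wild-type bins were below -2.41 and the highest 10% above 0.55. Bin by bin, the H3-like and wild-type tracks had a Pearson r of 0.95 (3787 bins, a description, since neighbouring bins can share reads). H3-like minus wild type had a median of -0.07 in the arm, where 3.27% of bins were more than 2-fold higher and 0.317% more than 2-fold lower, against 5.3% and 0.156% of all bins.

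With K27M, the median levels of the arm were below those without it, and the mutants differed in how the arm stood to the rest of V. In H3.3K27M the 1 kb median of the arm was -0.04, against 0.54 in the left arm, 0.65 in the centre, 1.19 on X and -1.39 in other autosomal bins. In H3-like K27M it was -0.11 in the arm, but -0.49 in the left arm, -0.81 in the centre, 1.41 on X and -0.86 in other autosomal bins. The arm was thus the lower of the 2 arms in H3.3K27M and the higher of them in H3-like K27M. On the log2 ratio of recovered reads in 10 kb bins, which also covers the duplication strains, the medians of the arm were 0.48 (wild type), 0.23 (H3-like) and 0.26 (duplication), and 0.19, 0.04 and 0.18 in their K27M counterparts.

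**Figure D1:**
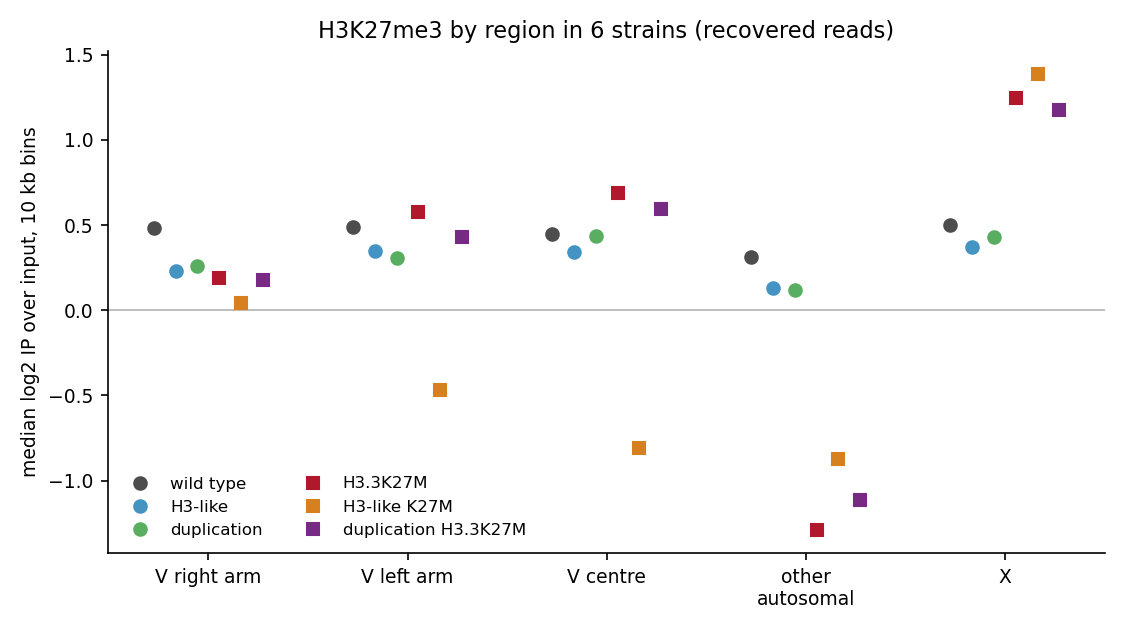
Median log2 ratio of IP over input (recovered reads, 10 kb bins) for H3K27me3 in each of 6 strains, in the right arm of V, the left arm, the centre, other autosomal bins and X; circles are strains without K27M and squares strains with it, 1 library each, so there are no error bars. H3-like K27M (orange squares) lies at 0.04 in the right arm, -0.47 in the left arm and -0.81 in the centre, whereas H3.3K27M lies at 0.19, 0.58 and 0.69.

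The median log2 level of the arm and the median change of its bins moved in opposite directions, which was not so for the means. Although the median level of H3.3K27M was below that of the wild type, the median of the bin-by-bin difference was 0.25, and its mean was -0.09. The 10th and 90th percentiles of that difference were -1.57 and 0.88, so many bins gained a little and fewer lost much. In H3.3K27M, 4.99% of the bins were more than 2-fold higher than in the wild type and 24.9% more than 2-fold lower, against 7.07% and 28.7% of all bins. In H3-like K27M minus H3-like, the median difference was 0.33, with 28.4% of bins more than 2-fold higher and 2.53% lower, against 20.5% and 28.2% of all bins. All autosomal bins had 12.9% and 34.3%, and X had 56.3% higher. Bins low in the mark rose too. The lowest 10% of bins of the arm were below -1.83 in H3-like and below -0.89 in H3-like K27M. The same H3-like comparison gave a median difference of -0.67 in the left arm and -0.996 in the centre, where 23.6% and 49.8% of the bins fell more than 2-fold. These are differences of single libraries, with no replicate check.

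The difference between the arm and other regions was compared between strains with and without K27M on mean input-subtracted signal, in scaled reads per 100 bp bin. The wild type had a mean of 21.9 over the arm, H3-like 4.85 and the duplication 5.24, while H3.3K27M had 34.9, H3-like K27M 48.0 and the duplication with K27M 28.0. Over the whole arm, every strain with K27M was above every strain without, although the median log2 levels were lower with K27M in each pair. Without the 800 kb block described below, which was picked after seeing the data, this separation did not hold. The means were then 14.95, -0.82 and -1.03 in the wild type, H3-like and duplication. Their K27M counterparts had 8.20, 14.62 and 7.08, so the wild type was the highest strain. The arm minus all other autosomal bins without K27M was 15.6 ± 5.64 (SD over n = 3 strains), and with K27M 68.9 ± 18.4 (SD, n = 3), a difference of 53.2 (two-sided exact permutation test, p = 0.1, the smallest that 3 against 3 can give; adjusted over 6 such tests, 0.3). All 3 pairs showed this direction, with 41.6, 77.0 and 41.0 for the wild-type, H3-like and duplication pairs. Part of each difference was a fall in the other autosomal bins. Their means were -0.246, -7.39 and -7.26 without K27M and -28.9, -41.3 and -25.5 with it, in the same order of pairs. Against X the contrast went the other way, as the mean of X rose more than that of the arm in each pair. The means of X were 41.2, 25.0 and 34.3 without K27M and 141.0, 165.7 and 121.5 with it. The arm minus X was -22.8 ± 5.42 (SD, n = 3) without K27M and -105.8 ± 12.1 (SD, n = 3) with it, again by an exact permutation test at its smallest p of 0.1 (adjusted, 0.3).

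Against the centre and the left arm of V no common direction was found. The arm minus the V centre was -6.85 ± 8.04 (SD, n = 3) without K27M and 22.8 ± 54.7 (SD, n = 3) with it (exact permutation test, p = 0.7, adjusted 1). The arm minus the left arm was -6.45 ± 2.34 (SD, n = 3) and 18.6 ± 43.6 (SD, n = 3; exact permutation test, p = 0.6, adjusted 1). A single library set these means. Without H3-like K27M the difference for K27M was -1.95 against the centre and -0.17 against the left arm, in place of 29.6 and 25.0. Over the 6 strains the arm was above the left arm in 1 strain, H3-like K27M, at 68.9, and the other 5 strains gave -3.97 to -8.60 (exact sign-flip permutation test over 6 strains, p = 1). It was above the centre in 2 strains, H3-like K27M at 85.9 and the wild type at 1.67 (exact sign-flip permutation test, p = 0.969).

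A test across the genome placed both gains and losses of H3K27me3 inside the arm, on tracks scaled to equal reads. These are relative changes, since the study found total H3K27me3 much reduced by Western blot in H3.3K27M and H3-like K27M. The mean input-subtracted signal of each 10 kb bin was compared between the 3 strains with and the 3 without K27M by limma, with p-values adjusted over all 10024 bins (Benjamini-Hochberg, threshold 0.05). Of the 378 bins of the arm, 130 were called higher with K27M (34.4%, against 20.7% of all bins) and 98 lower (25.9%, against 37.9% of all bins), and the median difference was 13.9 scaled reads per 100 bp bin, against -9.42 over all bins. Calls in the other parts of V were 17 higher and 92 lower of 524 bins in the left arm, and 29 higher and 198 lower of 1065 in the centre. The right tip, which adjoins the arm, had 11 higher (19.0%) and 5 lower (8.62%) of 58 bins, so gains outnumbered losses there as well. Among all other autosomal bins 2.63% were higher and 47.0% lower, and on X 1735 of 1771 were higher. The split depended on the scaling of the tracks. With each track centred on its own genome-wide median, 283 bins of the arm were higher and 2 lower, and with quantile normalization 81 and 6. With the background as a block the counts were 136 and 74. Without the wild-type pair 105 were higher and 40 lower, and without the duplication pair 110 and 26.

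The 3 largest called gains lay at separate places. At V 19270001 to 19280000, the mean signal was 88.6, 20.0 and -29.4 scaled reads per 100 bp in the wild type, H3-like and duplication, and 274.4, 410.7 and 165.8 in their K27M counterparts. The difference was 257.2 ± 62.9 (SE; limma adjusted p = 0.0113). At V 17100001 to 17110000 the values were 74.0, 39.6 and 32.4 without K27M and 245.8, 373.4 and 190.1 with it, a difference of 221.1 ± 44.8 (SE; limma adjusted p = 0.00498). H3-like K27M was the highest strain in both bins. The groups did not overlap in either, which the choice of the largest called differences makes likely. At V 20300001 to 20310000, near the outer end, the values were 61.6, 6.69 and -48.6 against 195.6, 291.4 and 104.3, a difference of 190.6 ± 50.3 (SE; limma adjusted p = 0.0155). These bins also had high H3K36me3, at log2 ratios of 1.50, 1.20 and 1.46 in the wild type and 1.37, 1.12 and 1.65 in H3.3K27M. Among 15 alternatives, the limma adjusted p of the first was 0.000478 to 0.073, that of the second 2.03e-05 to 0.0535 and that of the last 0.000847 to 0.137, so that each lost its call in 1 to 3 of them.

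Of the 3 largest called losses, 2 adjoined each other. At V 18710001 to 18720000 the signal was 138.9, 86.7 and 112.8 scaled reads per 100 bp in the wild type, H3-like and duplication, and -14.0, -11.6 and -22.7 with K27M (difference -128.9 ± 13.9 SE, limma adjusted p = 0.000603). The adjoining bin, V 18720001 to 18730000, had 52.4, 20.2 and 48.6 against -72.5, -47.1 and -68.3 (difference -103.1 ± 12.2 SE, limma adjusted p = 0.00074). Both kept their calls in all 15 alternatives. The bin V 16770001 to 16780000, close to the inner end, had 37.3, 9.16 and -3.11 against -81.6, -63.5 and -71.1 (difference -86.5 ± 12.3 SE, limma adjusted p = 0.00124), and its adjusted p was 0.073 after centring. In these bins the log2 ratio of H3K36me3 was -0.48 in H3.3K27M against 0.47 in the wild type, 0.65 against 1.10 and -0.84 against 0.09, in an arm where only 18.3% of all 10 kb bins had a positive difference for that mark.

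Along the arm, the strains without K27M held an even level with a few gaps, and the strains with K27M alternated between stretches above and below 0. Over 38 windows (37 of 100 kb and a last one of 87 kb), the wild-type medians centred on 0.38 and reached at most 0.43, and they fell below -0.5 in 6 windows. The lowest were adjoining, at V 17950001 to 18050000 (-2.55), V 17850001 to 17950000 (-2.52) and V 18050001 to 18150000 (-1.99). H3-like was low in the same 3 windows, at -2.00, -1.79 and -1.65. The highest wild-type windows, V 17150001 to 17250000, V 18150001 to 18250000 and V 17350001 to 17450000, had 0.43 each. In H3.3K27M the windows ranged from -1.84 to 1.21 and in H3-like K27M from -0.84 to 1.61.

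**Figure D2:**
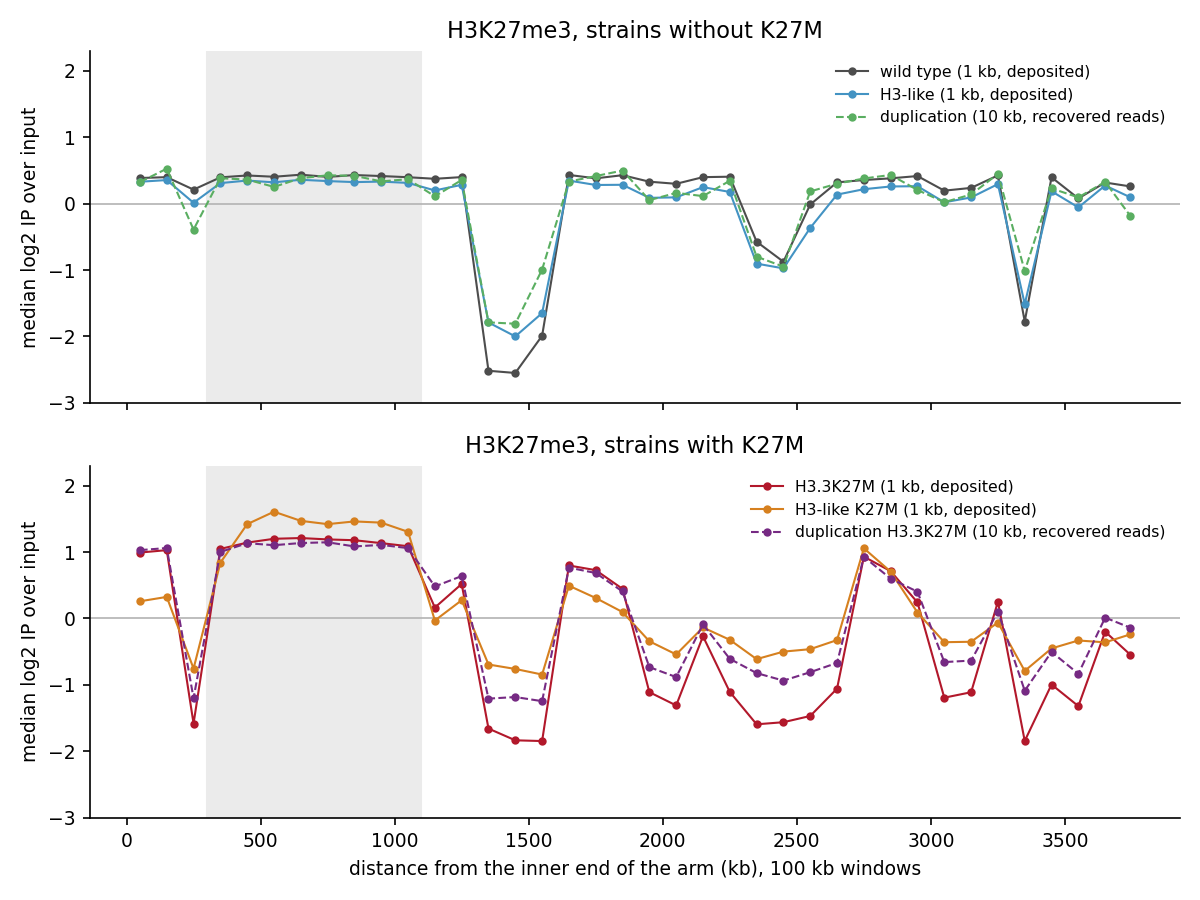
Median log2 H3K27me3 in 100 kb windows against the distance from the inner end of the arm, for 3 strains without K27M (top) and 3 with it (bottom), 1 library each; solid lines are deposited 1 kb tracks, dashed lines recovered reads in 10 kb bins, and the shaded span is an 800 kb block. In the block H3.3K27M stays between 1.05 and 1.21 and H3-like K27M between 0.84 and 1.61, while strains without K27M hold 0.25 to 0.43.

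The longest stretch of gains was a block of 800 kb, V 16850001 to 17650000, which was picked out after the values had been seen. In it the 1 kb medians of the wild type and H3-like were 0.41 and 0.33, and those of H3.3K27M and H3-like K27M were 1.15 and 1.41. The medians of X in the same tracks were 1.19 and 1.41, so in both mutants the block had about the level of X. On recovered reads in 10 kb bins the duplication strain had 0.38 in the block and the duplication with K27M 1.09. Of the 80 bins of 10 kb in the block, limma called 71 higher and 0 lower (1 lower at an unadjusted p under 0.05), and outside it 59 of 298 bins of the arm were higher and 98 lower. The input in the block was 1.02 to 1.09 of the genome-wide median in the 6 libraries. Leaving the block out, the median difference of the arm was -0.02 for the wild-type pair and 0.00463 for the H3-like pair.

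Few other autosomal stretches reached the level of the block in H3-like K27M. Of 783 windows of 100 kb on the autosomes outside the arm, 5 had a median at or above 0.84, the lowest of its 8 windows: 1 on I, 4 on II and 0 on V. In H3.3K27M the lowest window of the block had 1.05, and 26 windows outside the arm reached it, 21 of them elsewhere on V. These limits were set after the values of the block had been seen and carry no test.

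On both sides of the block the tracks changed abruptly. The first 2 windows of the arm had 0.99 and 1.03 in H3.3K27M, but 0.26 and 0.32 in H3-like K27M. The next, V 16750001 to 16850000, fell to -1.58 and -0.75, while the wild type had 0.21. Its bins were mixed, and 41% were above 0 in neither the wild type nor H3.3K27M. The medians of the bin-by-bin differences there were positive, at 0.19 for the wild-type pair and 0.34 for the H3-like pair. This window holds the third named loss, and its input was 1.05 to 1.42 of the genome-wide median. At the outer side of the block, the window V 17650001 to 17750000 had 0.16 for H3.3K27M and -0.03 for H3-like K27M.

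The largest losses of H3.3K27M lay on the outer side of the arm. The window V 18550001 to 18650000 had a median difference from the wild type of -1.57, V 19150001 to 19250000 had -1.22 and V 19550001 to 19650000 had -1.21. H3-like K27M differed from H3-like by -0.63, -0.31 and -0.27 in the same windows, which is the same direction with smaller values. In the first of them all 10 bins of 10 kb were called lower. The largest gains, 0.76, 0.76 and 0.72, were 3 windows of the block. Over the outer 1897 kb, beyond V 18440000, the median differences were -0.54 and -0.12, against 0.57 and 0.71 over the inner 1890 kb, and limma called 34 bins higher and 81 lower there, against 96 and 17 on the inner side.

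The outer end was mixed. The last 3 windows had wild-type medians of 0.08, 0.32 and 0.26, and H3.3K27M had -1.32, -0.20 and -0.54. H3-like K27M had -0.33, -0.36 and -0.24 there. In 2 windows, V 19850001 to 19950000 and V 19950001 to 20050000, the input of H3-like K27M was 1.28 and 1.10 of its genome-wide median, against 0.86 and 0.75 in the wild type, and the part of this in the values of those windows was not tested.

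The study sorted chromatin into classes by whether H3K27me3 was enriched in the wild type and in the mutant. With a log2 ratio above 0 as the limit, 48.1% of the 1 kb bins of the arm were enriched in both strains of the wild-type pair (class i, Wilson 95% interval 46.5% to 49.7%, for counting of bins only), 27.5% in the wild type alone (class ii) and 24.2% in neither (class iii). In all autosomal bins these shares were 26.4%, 36.8% and 36.5%, and in the left arm 61.3%, 17.7% and 20.6%. The H3-like pair gave shares in the arm of 43.3%, 25.3% and 29.1%, but 17.2%, 59.1% and 23.3% in the left arm. Of the bins of the arm in class i by the first pair, 86.4% were in class i by the H3-like pair too, against 28.0% of those of the left arm.

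The medians of the other tracks were taken within each class. In class i, the median rose from 0.42 in the wild type to 1.04 in H3.3K27M, values that the classes themselves use. In the H3-like pair, which they do not use, class i went from 0.34 to 1.10, class ii from 0.14 to -0.40 and class iii from -1.66 to -0.74. Bins low in the mark before the mutation therefore also contributed positive log2 differences. H3.3 OLLAS had medians of -0.72 in class i, 0.17 in class ii and 0.32 in class iii, and H3.3K27M OLLAS had -0.79, 0.21 and 0.21.

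Class i formed the longest runs. Its 3 longest runs of adjoining 1 kb bins, of 132, were all in the 800 kb block: V 16983001 to 17118000 (135 kb), V 17394001 to 17513000 (119 kb) and V 17157001 to 17265000 (108 kb). They had H3-like K27M medians of 1.58, 1.49 and 1.48. The longest runs of class ii, of 229, were short: V 18480001 to 18507000 (27 kb), V 19159001 to 19186000 (27 kb) and V 18550001 to 18576000 (26 kb), with H3-like K27M at -0.38, -0.38 and -0.53. The longest runs of class iii, of 134, were V 17920001 to 17996000 (76 kb), V 18057001 to 18116000 (59 kb) and V 18951001 to 19010000 (59 kb). The wild-type medians of these were -2.82, -2.80 and -2.44.

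Tagged H3.3 was low where H3K27me3 was high with K27M. H3.3 OLLAS had a 1 kb median of -0.22 in the arm, H3.3K27M OLLAS one of -0.27, above those of the left arm (-0.51 in both) and of the centre (-0.49 and -0.45), and below those of other autosomal bins (-0.10 and -0.08). The lowest windows of H3.3 OLLAS, V 16950001 to 17050000 (-1.02), V 17150001 to 17250000 (-0.96) and V 17350001 to 17450000 (-0.92), were in the 800 kb block. The highest, V 18950001 to 19050000 (0.52), V 19550001 to 19650000 (0.50) and V 18550001 to 18650000 (0.42), were on the outer side, and the latter 2 were also among the 3 windows with the largest losses of H3K27me3 in H3.3K27M. Over the inner 1890 kb the median was -0.60 and over the outer 1897 kb 0.11.

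The mutant and the unmutated tagged H3.3 had nearly the same profile. Their Pearson r over the 3787 bins was 0.95, and the median difference, H3.3K27M OLLAS minus H3.3 OLLAS, was -0.05. Of the bins, 0.29% were more than 2-fold higher and 0.132% more than 2-fold lower, against 0.118% and 0.101% of all bins. In the 800 kb block the medians were -0.89 and -0.98.

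**Figure D3:**
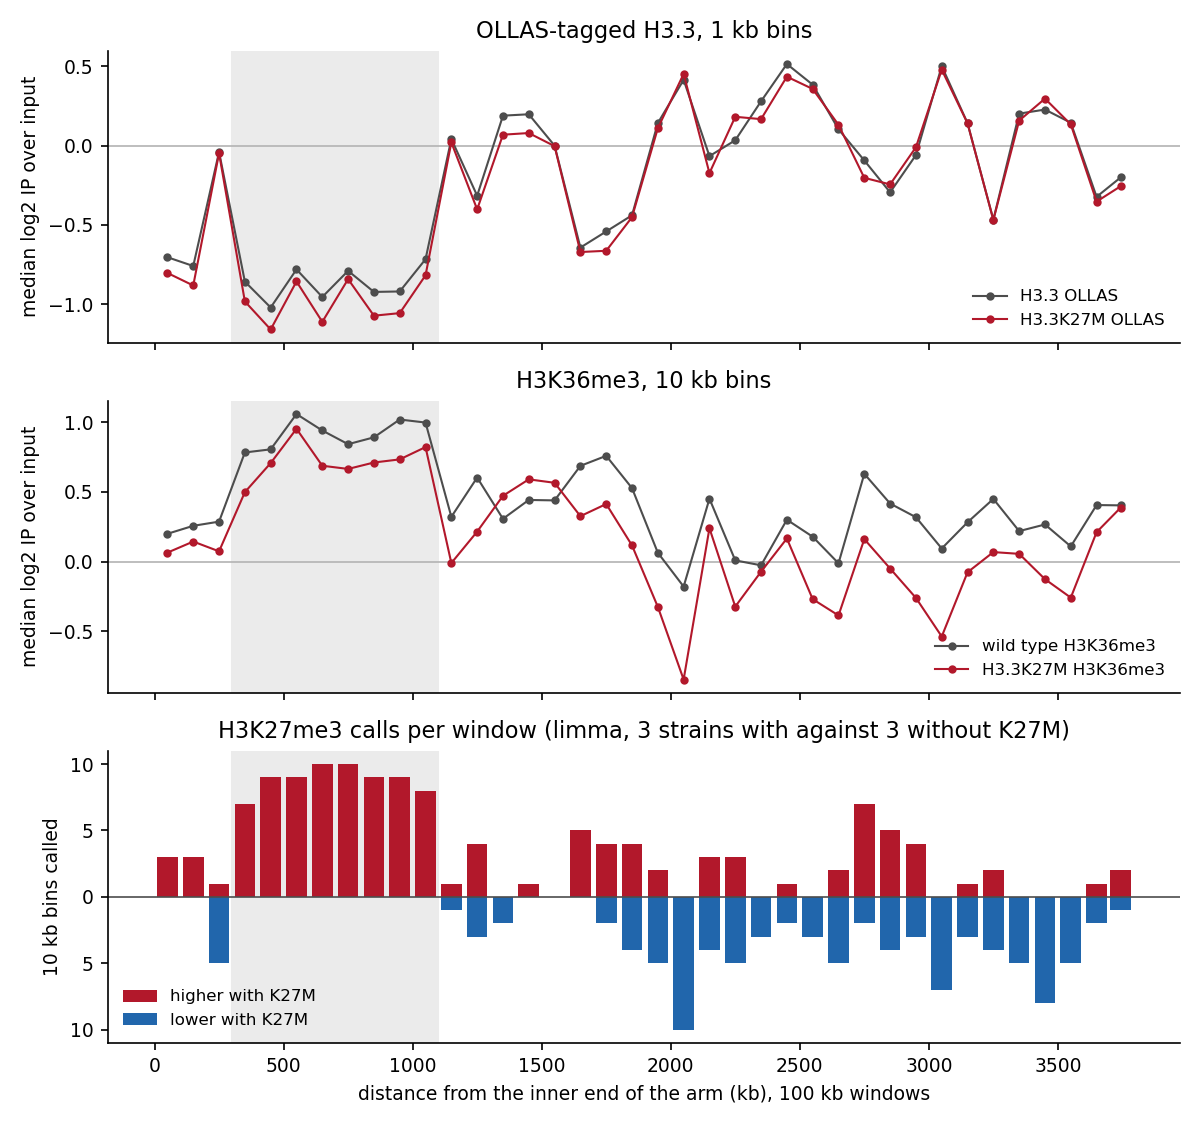
Median log2 ratios in 100 kb windows along the arm for both OLLAS strains (top, 1 kb bins) and for H3K36me3 in the wild type and H3.3K27M (middle, 10 kb bins), and the number of 10 kb bins per window called higher (red, upward) or lower (blue, downward) in H3K27me3 with K27M by limma (bottom); the shaded span is the 800 kb block. In the block OLLAS lies between -1.16 and -0.72, wild-type H3K36me3 between 0.78 and 1.06, and 71 bins are called higher and 0 lower.

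In the arm, the correlation of H3K27me3 with tagged H3.3 was more negative with K27M than in the wild type. Across the 1 kb bins of the arm, Pearson r between H3K27me3 and H3.3 OLLAS was -0.40 in the wild type (Spearman rho -0.41), that between H3.3K27M and H3.3K27M OLLAS was -0.67 (rho -0.70), and that between H3-like K27M and H3.3 OLLAS was -0.61 (rho -0.62). In the left arm the same values of r were -0.47, -0.62 and -0.46. These bins share libraries and neighbouring reads, so the values are descriptions, and the placement of the H3-like K27M histone itself was not analysed here.

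The 2861 bins of the arm above 0 in the wild type were split into 4 equal classes by H3.3K27M OLLAS, at log2 ratios of -0.94, -0.48 and 0.11. From the lowest to the highest class, H3.3K27M went from 1.16 through 0.96 and 0.27 to -1.05. Wild-type H3K27me3 went from 0.43 to 0.36, a narrow range that the choice of bins above 0 in the wild type partly fixes, so the mutants are not set against it. H3-like K27M went from 1.34 through 0.88 and 0.04 to -0.37. With the same limits the left arm gave 1.03, 0.78, 0.39 and -0.37 in H3.3K27M, but -0.15, -0.45, -0.63 and -0.74 in H3-like K27M. H3-like K27M was therefore higher in the right arm than in the left in each of the 4 classes of H3.3K27M OLLAS. The lowest and highest classes are open-ended, and the classes do not match the level of the H3-like K27M histone, which was not analysed here.

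**Figure D4:**
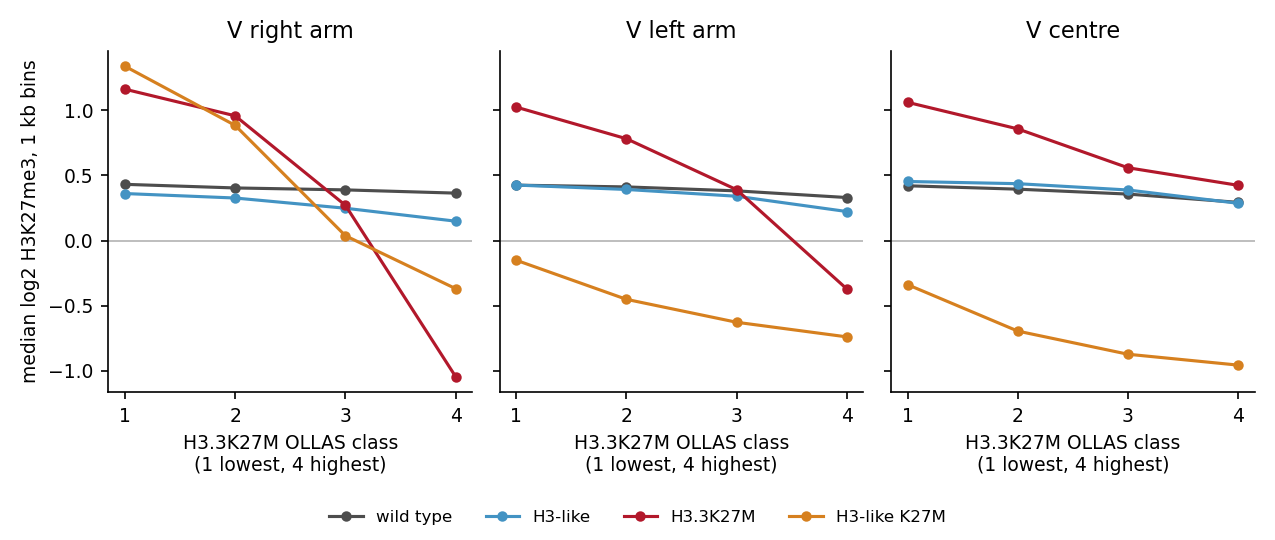
Median log2 H3K27me3 of 1 kb bins above 0 in the wild type, by class of H3.3K27M OLLAS (limits -0.94, -0.48 and 0.11, set in the right arm), for 4 strains in the right arm, the left arm and the centre of V; lines join the medians of single libraries. H3-like K27M runs from 1.34 to -0.37 in the right arm and from -0.34 to -0.96 in the centre.

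H3K36me3 was higher in the arm than in the other parts of V. The 10 kb log2 median was 0.40 in the wild type, against 0.00 in the left arm, -0.25 in the centre, -0.02 in other autosomal bins and -0.53 on X. In H3.3K27M it was 0.27 in the arm, against -0.20, -0.33, -0.14 and -0.48. The adjoining right tip, with 58 bins, was nearer to the arm in the wild type, at 0.26, and had -0.00419 in H3.3K27M. On recovered reads all wild-type medians were higher, at 0.63 in the arm, 0.28 in the left arm, 0.05 in the centre, 0.23 in other autosomal bins and -0.23 on X, and the arm was again the highest. The median difference between the strains was -0.27, with 0% of the bins more than 2-fold higher and 0.265% (1 of 378) more than 2-fold lower, against 0.02% and 0.14% of all bins. The H3K36me3 input of the wild type was 1.00 of its genome-wide median over the inner 1890 kb and 0.77 over the outer 1897 kb, and the part of this in the levels was not tested.

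The highest H3K36me3 bins of the wild type were V 17130001 to 17140000 (1.69), V 18440001 to 18450000 (1.52) and V 19270001 to 19280000 (1.50). Their H3K27me3 in the wild type was above 0, at 0.27, 0.38 and 0.47, and higher in H3.3K27M, at 0.84, 1.14 and 1.20. The wild-type 10 kb median of H3K27me3 was 0.375 in the arm and 0.283 over all bins, so the first of them was below both. The last is the bin with the largest rise in the limma comparison. The lowest were V 19520001 to 19530000 (-0.97), V 18590001 to 18600000 (-0.79) and V 19350001 to 19360000 (-0.66), which had 0.07, 0.06 and 0.39 for H3K27me3 in the wild type and -0.86, -1.25 and -0.55 in H3.3K27M. In the 800 kb block wild-type H3K36me3 had a median of 0.92. Of the 783 autosomal windows outside the arm, 4 reached the lowest of its windows (0.78), all on II, and 2 did so together with the H3-like K27M limit of the block.

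A larger share of bins in the arm had both marks above 0 than in the regions compared with it, as a description with no test. In the wild type 62.4% of the 378 bins of 10 kb had log2 ratios above 0 for both marks, against 32.1% in the left arm, 6.29% in the centre and 16.8% of other autosomal bins. In H3.3K27M the shares were 42.3%, 15.8%, 8.36% and 6.70%. These shares rest on where 0 lies on the H3K36me3 scale. On recovered reads, an alternative chosen after seeing the data, they were 72.8%, 67.4%, 35.7% and 38.2% in the wild type and 48.4%, 35.3%, 21.0% and 12.0% in H3.3K27M, with a smaller gap between both arms of V. Across bins, Pearson r between the marks in the arm was 0.20 for the wild type and 0.36 for H3.3K27M (rho 0.37 and 0.41, 378 bins), whereas it was -0.23 and -0.35 in the left arm (rho -0.14 and -0.09) and -0.59 and -0.56 in the centre (rho -0.32 and -0.30). On input-subtracted values the r of the arm was 0.44 and 0.60, and on recovered reads 0.29 and 0.41, where the left arm had rho of 0.01 and 0.02. In nuclei of several cell types, both marks above 0 in a bin does not show both on the same nucleosome, and 1 library per mark and strain gives these shares no replicate error.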

How the data were processed

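The deposited files were 27 genome tracks, of which 23 were used. The other 4 are named for precipitation of the mutant histone in H3.3K27M and H3-like K27M, correspond to no library in the labels, and were not used here, so mutant H3.3 is placed by its OLLAS track only, and H3-like K27M by none. Groups followed the strain and antibody in the labels, each with 1 IP and 1 input library. According to the methods of the study, paired reads were mapped to WBcel215 with Novoalign, scaled to equal read numbers, and merged over the replicates that passed quality control. The authors deposited log2 ratios of IP over input in 1 kb and 10 kb bins, and input-subtracted values (scaled IP reads minus scaled input reads) in 100 bp bins. Since all tracks are scaled to equal reads, loss of the mark in one place can raise values elsewhere, and total amounts were not compared.

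Whole reads were recovered from each 100 bp value (tolerance 2e-08, scaled input up to 1500), which solved at least 99.96% of the bins of the arm in every track. Log2 ratios of recovered reads used a pseudocount of 1 scaled read on both sides, and sit higher than the deposited 10 kb ones in the arm, by a median of 0.11 and 0.07 for H3K27me3 and 0.24 and 0.25 for H3K36me3 in the wild type and H3.3K27M, which moves some values across 0. Levels are medians over bins. The test across bins used limma 3.58.1 (R 4.3.3, eBayes without trend) on 10 kb means of the input-subtracted values of 6 strains. It was also run on simulated data with independent noise in each bin. That simulation held no offset shared over a whole track, so it cannot check how the calls depend on scaling. Contrasts between regions used two-sided exact permutation tests (scipy 1.17.1), whose smallest p was 0.1 for 3 against 3 strains and 0.0313 for sign flips of 6. All p-values measure the spread between strains.

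Borders of the left arm and centre were set from general knowledge of the recombination domains. Regions named in the text were the 3 largest called rises and falls that went the same way in all 3 background pairs, the 3 longest runs of each class, the 3 highest and lowest windows of wild-type H3K27me3, H3.3 OLLAS and the H3.3K27M difference, the 3 highest and lowest H3K36me3 bins, and the first and last 3 windows. The arm, these lists and the tests were chosen with earlier results of these data known. The 800 kb block, and the windows compared with it, were chosen after seeing the data. Alternatives changed the values, the scaling, the limma prior, the bin size, the borders, the filter and the strains. No genome sequence or gene annotation of WBcel215 was used here, so genes in the arm are not named.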

Additional observations from a re-analysis of the deposited data

Results flagged for a closer look

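The change of the arm relative to the V centre with K27M differed in direction between the strain pairs, at -10.4 scaled reads per 100 bp bin for the wild-type pair, 93.8 for the H3-like pair and 5.45 for the duplication pair. Relative to the V left arm it was -3.58, 77.5 and 1.08 in the same pairs. With 1 library per strain, the difference between pairs was not tested.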

How the results depend on the processing

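The number of 10 kb bins of the arm called higher (130) became 283 with tracks centred on their genome-wide median, 81 with quantile normalization and 59 without the 800 kb block, an alternative added after seeing the data; the number called lower (98) became 2 with centring and 6 with quantile normalization. With the background as a replicate block, 136 were higher and 74 lower. Leaving out strains or pairs gave 105 to 148 higher and 26 to 107 lower.

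The K27M contrast against other autosomal bins was 41.3 to 60.9 when strains or pairs were left out, and that against X -92.2 to -75.6. Against the V centre it ranged from -2.49 to 49.6 and against the left arm from -1.25 to 39.3; over the 6 strains these were -7.63 to 17.7 and -6.52 to 12.2, below 0 only without H3-like K27M or its pair. With medians over bins the 4 values reversed, to -5.55, -7.16, -16.0 and -10.9, and on log2 ratios the values over 6 strains were -0.0131 (centre) and -0.0459 (left arm).

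The median change of H3.3K27M (0.25) became 1.37 with centring, 0.15 on recovered reads, -0.0905 as a mean, 0.13 with the inner end moved outward by 500 kb and 0.38 with it moved inward. That of H3-like K27M (0.33) became 1.28 with centring, 0.21 with the end moved inward and 0.25 with the tip included. H3-like minus wild type (-0.07) became -0.0262 with centring, -0.19 on recovered reads, -0.00516 as a mean and -0.0802 with the end moved outward. The OLLAS difference (-0.05) became -0.0704 with centring and -0.0976 on recovered reads, and that of H3K36me3 (-0.27) -0.15 with centring. The causes were not tested.

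Shares of classes i, ii and iii were 51.0%, 9.48% and 30.1% with the genome-wide median as limit, 43.3%, 25.3% and 29.1% by the H3-like pair, and 10.7%, 6.18% and 52.4% with a limit of 0.5. In 10 kb bins classes i and iii were 51.1% and 22.5%. The share of bins with both marks above 0 rose from 62.4% to 72.8% (wild type) and from 42.3% to 48.4% (H3.3K27M) on recovered reads. Of the other values with an alternative, 102 of single bins or correlations and 130 of main results were counted as unchanged. For the region contrasts between strains with and without K27M, this shows only that the direction was kept. Their exact permutation p cannot fall below 0.1 with 3 against 3 strains, so the side of the threshold was fixed in advance. Counts of bins, median changes, shares and correlations had no p-value and were judged without that threshold.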
